A study of Rattus norvegicus with 6 samples.

Results

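The genes for 2 gelatinases, Mmp2 and Mmp9, and for the gelatinase inhibitor Timp1 were followed in rat vascular smooth muscle cells (rVSMCs), the cells that make up the muscular layer of arteries and veins. They are 3 of the 32883 Ensembl genes in the count table and were taken by identifier, ENSRNOG00000016695 for Mmp2, ENSRNOG00000017539 for Mmp9 and ENSRNOG00000010208 for Timp1, with names supplied along with the identifiers. All 3 were among the 12044 genes that passed the filter on low counts. The sg-MIAT group (3 samples, genotype label MIAT overexpression) carried a CRISPR-dCas9 system with a guide used to raise the long non-coding RNA MIAT from the genome. The sg-U6 group (3 samples, genotype label WT) received a negative control guide in that system. Both groups therefore hold dCas9, which binds DNA without cutting it. The tissue label is vessel, and neither the vessel, the passage nor the animals behind the cells are stated. Sample numbers 1 to 3 come from the labels, which name no separate cultures or animals, so the replicate spread behind each p-value may be technical.

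Gelatinases are secreted zinc proteases that cut denatured collagen and the collagen of basement membranes. They leave the cell as inactive proenzymes. The proenzyme of MMP2 is activated at the cell surface by a membrane-bound metalloproteinase, and MMP9 is induced by cytokines and growth factors in many cell types. TIMP1 binds the active site of most secreted metalloproteinases and also associates with the MMP9 proenzyme. In injured vessels these proteins are known for their part in matrix turnover when smooth muscle cells migrate into the intima. RNA levels were measured here by sequencing of polyadenylated RNA, not protein or enzyme activity.

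Timp1 was the only one of the 3 genes with a promoter in the RefSeq table used, so its sequence is shown for reference. The 250 bases before its annotated start, at chrX:3771123-3771372 on the minus strand of build GRCr8, read 5′ to 3′ as follows, with an AP-1-like heptamer and the Ets-type hexamers in capitals.
Timp1 promoter: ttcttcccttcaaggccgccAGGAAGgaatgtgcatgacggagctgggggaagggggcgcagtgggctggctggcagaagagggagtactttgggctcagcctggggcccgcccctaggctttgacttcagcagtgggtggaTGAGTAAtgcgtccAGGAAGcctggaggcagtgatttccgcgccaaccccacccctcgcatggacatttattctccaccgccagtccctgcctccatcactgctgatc
Both strands were searched for each motif. The heptamer TGAGTAA occurred once, 108 to 102 bases before the start, and 2.38% of the 33469 RefSeq promoter windows of that length hold it. The hexamer AGGAAG occurred 2 times, the nearer copy 94 to 89 bases before the start, and 29.5% of windows hold it. The GC box GGGCGG occurred 1 time, on the opposite strand, in a window set where 30.5% hold it. The AP-1 consensus TGAGTCA, present in 4.05% of windows, was not among these bases. The matches describe letters only. In the same annotation Timp1, on the minus strand, overlaps the neuronal gene Syn1 on the plus strand, while Mmp2 and Mmp9 overlap no other gene. The strand setting of the counting is not given in the sources used here. Reads of Timp1 and Syn1 may therefore not have been separated.

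Libraries held 13128977 to 18257865 counts. The first principal component of all tested genes, with 64.5% of the variance, set sg-MIAT 1 and sg-U6 1 apart from the other 4 samples, so results are also given without both. The identifiers could not be paired with other gene names, so the level of Miat, the smooth muscle identity of the cells, markers of other cell types, and the other metalloproteinases, inhibitors and activators were not analysed here.

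Timp1 RNA was the one member whose groups did not overlap. Levels are in CPM, counts scaled to a total of 1000000 after TMM correction for library composition, and are compared between samples of a gene and not between genes, since they carry no correction for gene length. Timp1 reached 3268, 2028 and 1851 CPM in sg-MIAT 1, 2 and 3. The sg-U6 samples 1, 2 and 3 had 1653, 1079 and 903 CPM. Every sg-MIAT sample thus lay above every sg-U6 sample, although sg-MIAT 3 and sg-U6 1 were close. Group means of Timp1 were 2382 ± 772 CPM with the MIAT guide against 1212 ± 392 CPM with the control guide (SD, n = 3 each). Of all tested genes, 9.04% had groups that did not overlap in either direction and 4.65% did so with sg-MIAT higher, so the separation of 1 gene in 3 is read against that background. An exact permutation test (two-sided) on 1 gene has p = 0.1 as its smallest value with groups of 3.

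The fitted Timp1 difference was 1.97-fold, a log2 value (sg-MIAT relative to sg-U6) of 0.98 ± 0.34 (SE) with a 95% interval of 0.16 to 1.79. It did not pass edgeR's quasi-likelihood test across all genes, with an adjusted p of 0.9995 (Benjamini-Hochberg) and an unadjusted p of 0.0264. At the adjusted threshold of 0.05 edgeR called 0% of genes. An unadjusted p under 0.05 was reached by 477 genes, or 3.96%, and Timp1 was number 240 of these by p. The absolute log2 fold change of Timp1 exceeded that of 92.9% of tested genes, whose median was 0.19. DESeq2 did not call it either, with an adjusted p of 0.447, where 0.443% of genes were called.

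Timp1 levels differed between the groups by a similar factor when samples of equal number were compared. The labels state no such pairing, so the factors and block fits below depend on that numbering. Relative to group means across all tested genes, sg-MIAT 2 correlated more with sg-U6 3 (r = 0.617) than with sg-U6 2 (r = 0.132). The data therefore do not show that numbers 2 and 3 mark pairs. The sg-MIAT sample was 1.98-fold above the sg-U6 sample for number 1, 1.88-fold for number 2 and 2.05-fold for number 3. In both groups the sample numbered 1 had the highest level. Without pairing, the spread of Timp1 was ordinary. Its within-group SD, 0.44 on the log2 scale, was smaller than that of 46.9% of the 143 genes whose mean CPM was within 2-fold of its own. The guide accounted for 64.4% of the variance of Timp1 log2 CPM and the sample number for 35.4%, against medians of 9.50% and 60.3% over all tested genes. With the number as a replicate block, the edgeR log2 fold change was 0.98 ± 0.17 (SE), at an adjusted edgeR p of 0.479, which did not pass. DESeq2 with the block gave 0.98 ± 0.18 (SE) and an adjusted DESeq2 p of 1.3e-05, which passed, in a fit that called 1.01% of genes. Without both samples numbered 1 the edgeR value was 0.97 ± 0.21 (SE), at an adjusted edgeR p of 0.612, so the size of the difference did not rest on that pair.

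**Figure D1:**
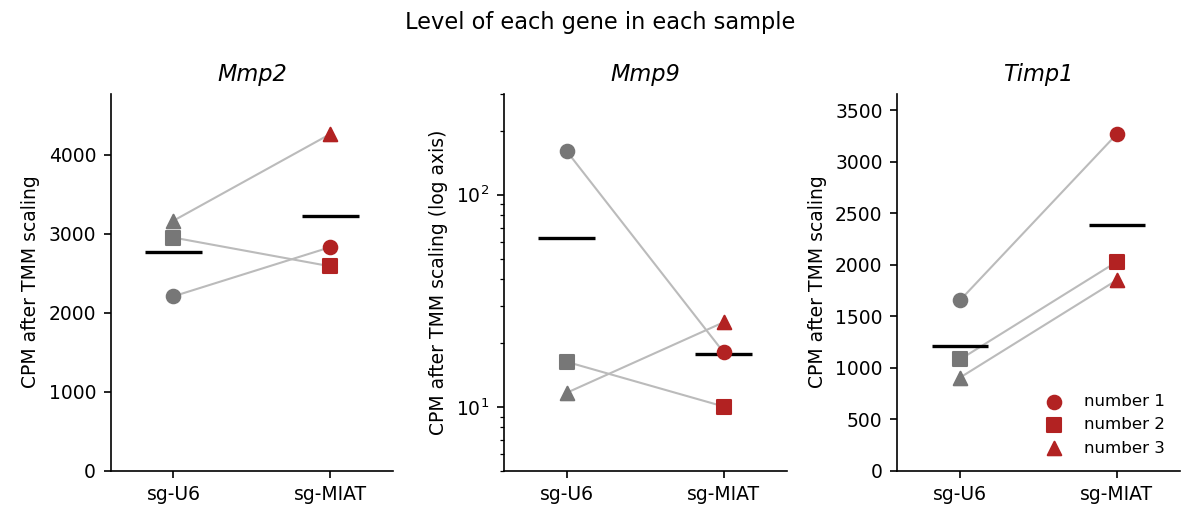
Level of Mmp2, Mmp9 and Timp1 in each of the 6 samples, in CPM after TMM scaling (log axis for Mmp9), with the marker shape for the sample number, grey lines joining equal numbers and black bars at the arithmetic group means. The Timp1 lines run nearly parallel in proportion, 1.88- to 2.05-fold, while 1 control sample at 160.4 CPM stands apart for Mmp9.

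Mmp2, the gelatinase that mesenchymal cells including smooth muscle make constitutively, showed overlapping groups. It was present at 2832, 2589 and 4266 CPM in sg-MIAT 1, 2 and 3. The sg-U6 samples 1, 2 and 3 held 2209, 2953 and 3167 CPM. The highest sample was sg-MIAT 3 and the lowest sg-U6 1, and the other sg-MIAT samples lay within the sg-U6 range. Means of Mmp2 were 3229 ± 906 CPM with the MIAT guide and 2776 ± 503 CPM with the control guide (SD, n = 3 each). Mmp2 had a fitted log2 fold change of 0.22 ± 0.29 (SE), at an adjusted edgeR p of 0.9995. Its 95% interval of -0.47 to 0.90 covers a difference in either direction, so equal levels were not shown. By sample number the log2 difference was 0.36, -0.19 and 0.43 for numbers 1, 2 and 3. Leaving out sg-MIAT 3 gave -0.032 ± 0.27 (SE), with an adjusted edgeR p of 0.998, so the positive sign rested on that sample. The within-group SD of Mmp2, 0.33 on the log2 scale, was smaller than that of 69.0% of the 71 genes whose mean CPM was within 2-fold of its own.

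Mmp9, the inducible gelatinase, was recorded at a low level in 5 samples and at a much higher one in a control sample. The sg-MIAT samples 1, 2 and 3 had 211, 184 and 420 counts, equal to 18.1, 10.03 and 25.0 CPM. The sg-U6 samples 1, 2 and 3 had 2278, 232 and 190 counts, equal to 160.4, 16.3 and 11.6 CPM. Sample sg-U6 1 was 6.40-fold above the next highest, sg-MIAT 3, and the other 2 controls lay inside the sg-MIAT range. Its exact Poisson 95% interval, 2185 to 2374 counts, lay far above the 381 to 462 counts around sg-MIAT 3. Reads carry no molecular identifiers, so these intervals cover counting error only.

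Means of Mmp9 were 17.7 ± 7.51 CPM with the MIAT guide and 62.8 ± 84.6 CPM with the control guide (SD, n = 3 each), the SD of the controls exceeding their mean. The fitted log2 fold change of -1.83 ± 1.03 (SE), a 3.54-fold lower level in sg-MIAT, had a 95% interval of -4.30 to 0.65 and an adjusted edgeR p of 0.9995. Without sg-U6 1 the sign turned, to 0.35 ± 0.40 (SE), at an adjusted edgeR p of 0.642. Leaving out both samples numbered 1 gave 0.33 ± 0.45 (SE), at an adjusted edgeR p of 0.814. With the replicate block the difference was -0.90 ± 0.83 (SE), at an adjusted edgeR p of 0.841. The within-group SD of Mmp9, 1.53 on the log2 scale, exceeded that of 95.7% of all tested genes. Among the 3850 genes with a mean CPM within 2-fold of its own, it exceeded 99.0%. That mean was raised by sg-U6 1, at 160.4 CPM, so these genes lie above the level of Mmp9 in most samples. For the same library, sg-U6 1, Timp1 was the highest and Mmp2 the lowest of the 3 controls. The part of that library's distance from the others in the Mmp9 value was not tested.

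**Figure D2:**
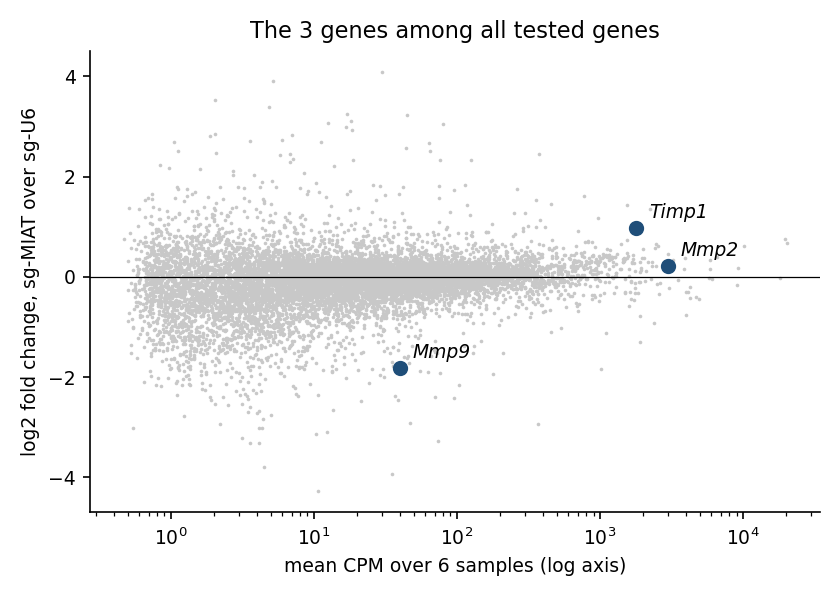
Fitted log2 difference between guides (positive where sg-MIAT is higher, vertical) against mean CPM over 6 samples (horizontal, log axis) for the 12044 tested genes in grey and the 3 named genes in blue. Timp1, at 0.98, and Mmp9, at -1.83, lie toward the edges of the cloud and Mmp2, at 0.22, within it, and none passed the edgeR test.

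The balance between a gelatinase and its inhibitor was described by the ratio of their counts within a library, which does not depend on scaling between libraries. Gene length is not corrected, so only its change between samples can be read. The Mmp2 to Timp1 ratio was 0.867, 1.28 and 2.31 in sg-MIAT 1, 2 and 3. It was 1.34, 2.74 and 3.51 in sg-U6 1, 2 and 3. The groups overlapped, but at each number the sg-MIAT sample had the lower ratio, by 1.54-, 2.14- and 1.52-fold. The mean log2 ratio was 0.45 ± 0.71 with the MIAT guide and 1.23 ± 0.72 with the control guide (SD, n = 3 each). The difference of -0.78 gave an exact two-sided permutation p of 0.2, or 0.3 after Benjamini-Hochberg adjustment over 3 ratios. Paired by number, the mean log2 difference was -0.78 ± 0.28 (SD over 3 pairs), larger than the spread between pairs and lower in sg-MIAT in 3 of 3. An exact sign-flip test of these differences gave p = 0.25, the smallest that 3 pairs allow. For the levels of single genes, 30.9% of tested genes had 3 same-numbered differences of 1 sign. Timp1 is part of this ratio, so the lower ratio is not separate from the Timp1 difference above.

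The Mmp9 to Timp1 log2 ratio was -7.50, -7.66 and -6.21 in sg-MIAT 1, 2 and 3. It was -3.37, -6.05 and -6.28 in sg-U6 1, 2 and 3. Again sg-U6 1 stood apart, and sg-MIAT 3 lay between sg-U6 2 and sg-U6 3. The difference of means was -1.89 (exact permutation p = 0.2, adjusted 0.3), and by number it was -4.13, -1.61 and 0.07. Without sg-U6 1 it was -0.96, and without both samples numbered 1 it was -0.77. For Mmp9 to Mmp2 the difference was -1.11 (exact permutation p = 0.9, adjusted 0.9), and without sg-U6 1 it turned to 0.22. With the number of samples here, none of these ratio tests could pass 0.05 (smallest p 0.1 unpaired and 0.25 paired).

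**Figure D3:**
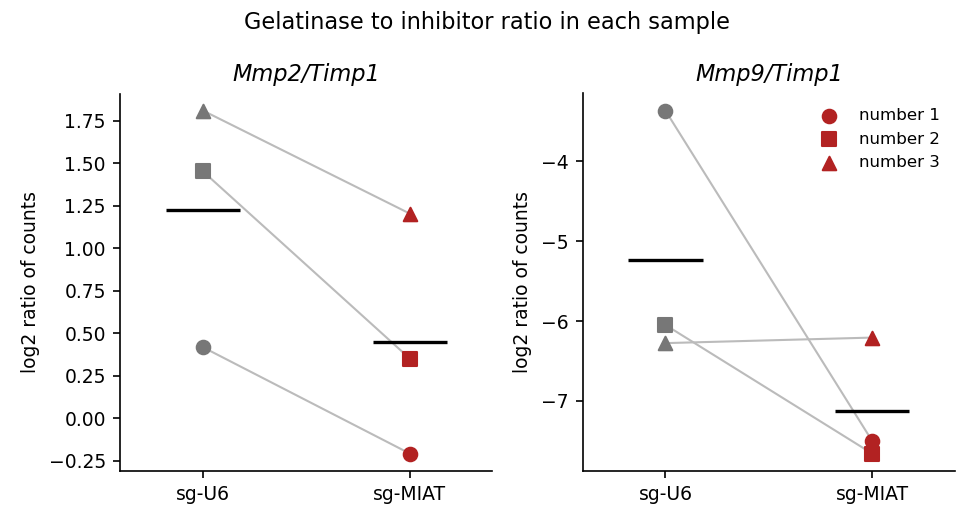
Log2 ratio of Mmp2 to Timp1 counts and of Mmp9 to Timp1 counts in each sample, with marker shape for the sample number, grey lines joining equal numbers and black bars at the group means. All 3 lines slope down for Mmp2 to Timp1, by 1.52- to 2.14-fold, while the groups overlap.

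Across the 16 ways of fitting the counts, the 3 genes behaved differently. Timp1 stayed above 0 in each, from 0.67 without sg-MIAT 1 to 1.27 without sg-U6 1, a direction that non-overlapping groups all but fix. Mmp2 ran from -0.032 to 0.36. Mmp9 ran from -2.32 to 0.35, and limma-voom gave -0.92 ± 1.05 (SE) on the same 6 samples, with an adjusted limma p of 1.00.

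**Figure D4:**
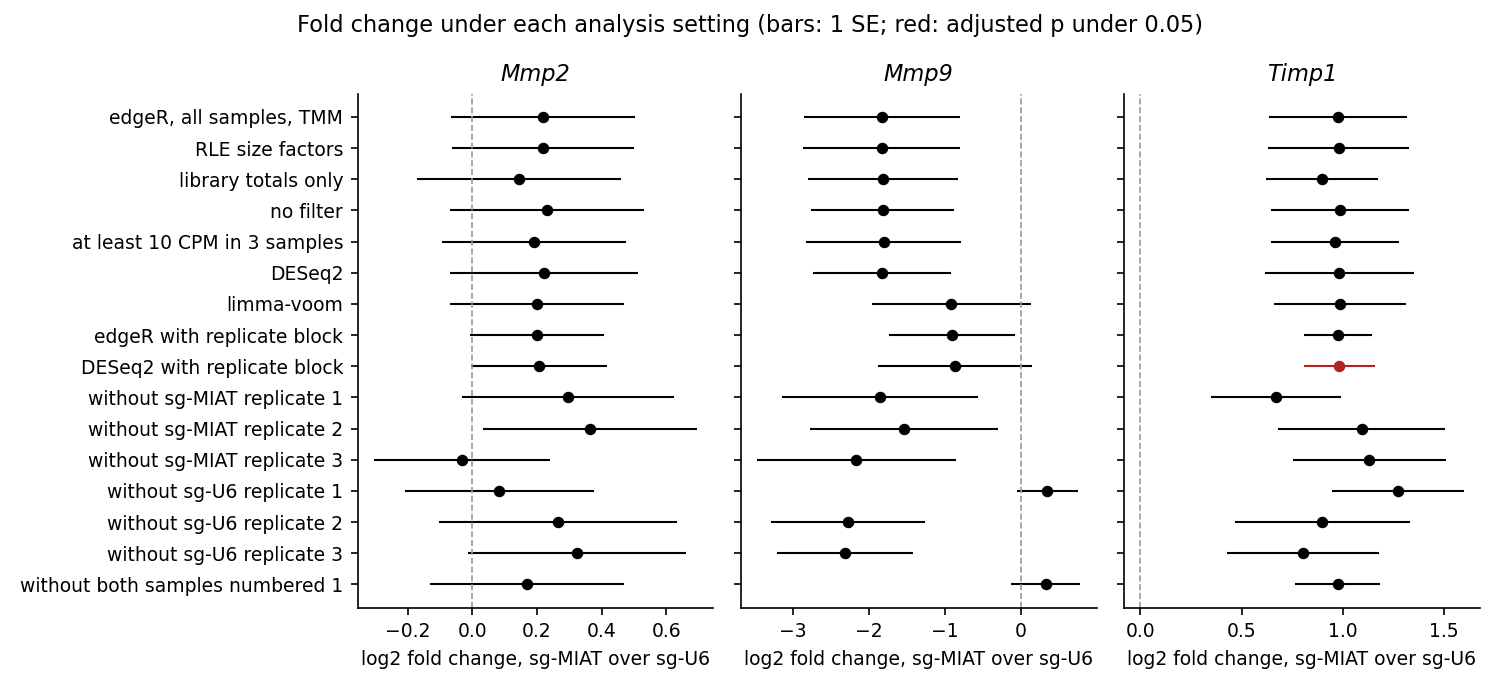
Log2 difference between guides (positive where sg-MIAT is higher) for each gene under each analysis setting, with bars of 1 SE, the dashed line at 0, and red for an adjusted p under 0.05. The only red point is Timp1 under DESeq2 with the replicate block, and the Mmp9 points cross 0 where sg-U6 1 is left out.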

How the data were processed

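Polyadenylated RNA was selected and sequenced as paired ends, per the labels' protocols. The authors deposited raw counts per Ensembl gene, 1 column per sample. HISAT2, DESeq2 and build Rnor_6.0 are listed, with no role or version, in the submitters' processing notes. Read counter and strand setting: not given in the sources used here. A second deposited table was not used. The members and tests were chosen with earlier results of these data known. The main test was edgeR 4.0.16 (R 4.3.3) on all genes, with TMM scaling, the default filter (minimum count 10, minimum total 15) and adjustment at 0.05. The edgeR SEs are the absolute log2 fold change over the square root of F. Intervals use the total degrees of freedom of that test, residual plus prior. Alternatives were DESeq2 1.42.0, limma-voom (limma 3.58.1), other scalings and filters, the replicate block and samples left out. The edgeR and DESeq2 fits, with and without the block, and the limma-voom fit were tested on simulated data. All planted changes were larger than the Timp1 difference, and a number effect was added for the block fits. The simulation therefore does not bear on a difference of that size or on the pairing. The correlation across genes between 2 samples of equal number, each taken relative to its group mean, was 0.715, 0.132 and 0.336 for numbers 1, 2 and 3, above 0.1 in each, and the block follows these numbers. The labels state no pairing. By this measure sg-MIAT 2 was closer to sg-U6 3 (0.617), and sg-MIAT 3 was about as close to sg-U6 2 (0.335) as to sg-U6 3. The values for numbers 2 and 3 therefore do not show that these numbers mark shared replicates. Named genes were the members and, for each, the most similar tested gene with a mean of at least 10 CPM. Gene lists by symbol were not analysed here, since 0 identifiers matched the RefSeq table. Counts per sample set the counting precision.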

Additional observations from a re-analysis of the deposited data

How the results depend on the processing

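The count of 0 genes called by edgeR held in 13 of 15 alternatives, including the replicate block and each sample left out. With all 6 samples and no block, 477 genes had an unadjusted edgeR p below 0.05. The limma-voom fit gave 0 calls and 419 such genes, while DESeq2 called 60 genes and, with the replicate block, 130. Timp1 kept its direction in all 15 alternatives and passed the threshold in 1, DESeq2 with the block (0.98). With 1 sample left out it ran from 0.67 to 1.27. Mmp2 (-0.032 to 0.36 with 1 sample left out) turned sign without sg-MIAT 3, and Mmp9 (-2.32 to 0.35) without sg-U6 1 and, at 0.33, without both samples numbered 1. Among the 3 genes the block changed no other call. Mmp9 was -0.90 in edgeR with the block, and -0.92 in limma-voom with the same 6 samples and no block. The Mmp9 to Mmp2 ratio ran from -1.93 to 0.22 with 1 sample left out and was 0.083 without both samples numbered 1. The Mmp2 to Timp1 difference ran from -1.18 to -0.45 and that of Mmp9 to Timp1 from -2.41 to -0.96 with 1 sample left out, and they were -0.85 and -0.77 without both samples numbered 1. Library totals in place of TMM moved the median of all genes to -0.10, and Timp1 was 0.90 on that scale, 1.00 above the median. The cause of these changes was not tested.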

Other observations

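The patterns here were chosen after the values were seen and are descriptions. A single sample at least 6.40-fold above the next highest, as for Mmp9, occurred in 37 of 12044 tested genes (0.307%), and in 25 of these, Mmp9 included, that sample was sg-U6 1. The log2 differences of Timp1 at the 3 sample numbers spanned 0.13, against a median span of 0.67, and 3.30% of tested genes had a span as small. With a mean difference at least as large in either direction as well, 2 genes remained, Timp1 itself and 1 that was lower in sg-MIAT. Both limits were set by the Timp1 values, and the spans depend on a pairing by number that the labels do not state. All 3 same-numbered differences had a single sign in 30.9% of tested genes.

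Over the 6 samples, the gene most like Timp1 in log2 CPM among 7771 was ENSRNOG00000005888 (Pearson r = 0.990), at 16.8, 12.7 and 10.7 CPM in sg-MIAT 1, 2 and 3 and 10.2, 7.87 and 7.36 CPM in sg-U6 1, 2 and 3. The gene most like Mmp2 was ENSRNOG00000020989 (r = 0.982), and the one most like Mmp9 was ENSRNOG00000001210 (r = 0.992), whose level was highest in sg-U6 1 but ran only from 32.2 to 41.1 CPM. These are the highest of many correlations over 6 points that share libraries. The samples numbered 1 stood apart, which can shape any of these values. Correlations between the 3 members over the 6 samples are not reported here for that reason, and either cluster alone holds too few samples.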
